A study of Mus musculus with 17 samples.

Results

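The antimicrobial peptides and defence lectins of the mouse colon were followed through 10 genes, taken as the entries of the deposited count table whose symbol was Reg3b, Reg3g, Retnlb, Lypd8, Lyz1, Ang4, Lcn2, S100a8, S100a9 or Pglyrp1. All 10 were found among 23719 entries. Of these, 8 were among the 14146 genes that passed the filter on low counts and were tested, while S100a8 and S100a9 failed it and are given as counts. RNA-seq had been done on colon explants of a mouse model of Gulf War illness (GWI), to ask what an earlier oral exposure to pyridostigmine bromide leaves behind in the colon. All mice were male C57BL/6 mice of 32 to 34 weeks. The 9 Control mice drank water. The 8 GWI mice received pyridostigmine bromide, a reversible blocker of acetylcholinesterase, at 2 mg/kg in the drinking water for 7 days and then recovered without it. The recovery is given as 21 days in one description and the end as day 30 in another. The model carries this single agent, and the labels give no litter, cage or sequencing batch.

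The colon keeps its bacteria at a distance by secreting proteins that kill them, starve them or hold them in the mucus. Epithelial cells secrete C-type lectins that bind the bacterial wall, goblet cells add proteins to the mucus, Paneth cells of the small intestine release lysozyme and defensins, and neutrophils carry calprotectin. The lectins are induced mainly through interleukin-22 and microbial sensing, and the goblet cell product resistin-like molecule beta through interleukin-4 and interleukin-13.

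Sequencing depth, as the total count of a mouse, was 16744096 to 20741212 in the Control group (median 17761682) and 16293537 to 18389686 in the GWI group (median 17428512). Levels are given as counts scaled to a common library size (CPM, after TMM scaling). In a bulk sample, fewer cells of a type and less RNA per cell cannot be told apart. By edgeR's quasi-likelihood test, 1 of the 8 tested genes was called at an adjusted p under 0.05 (Lyz1, lower in GWI), beside 26.8% of all tested genes in either direction and 13.5% in that direction. No member was called higher, against 13.4% of all tested genes. With upper-quartile scaling the members' calls were the same, while 8.58% of all tested genes were called higher and 21.2% lower. Among the 8 tested members, the count of higher calls was also 0 under edgeR without robust estimation, while DESeq2 called Reg3b, Lypd8 and Ang4 higher (15.3% of all tested genes) and limma-voom called Reg3b, Reg3g and Lypd8 higher (27.6%). In either direction DESeq2 called 4 of the 8 members beside 32.6% of all tested genes, and limma-voom 3 of the 8 beside 57.2%. These small counts were not tested against those shares. In edgeR's model, Reg3b (unadjusted p = 0.0174) and Lypd8 (unadjusted p = 0.0171) were higher at an unadjusted p under 0.05. The study's methods set an unadjusted p under 0.05 with an absolute log2 fold change over 1 on DESeq2 values. That threshold, applied to the edgeR fit, called 2 of the 8 members, Reg3b and Lyz1, beside 2.42% of all tested genes. Applied to DESeq2 as run here, an alternative chosen after seeing the data, it called Reg3b and Ang4, beside 2.64%. None of the 10 members separated the groups without overlap, which 2.35% of tested genes did.

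Several libraries stood apart in ways the groups do not explain. Control replicate 1 and GWI replicate 5 had the highest summed level of 7 posterior Hox genes, which mark the distal end of the gut, with 130 and 89.4 CPM. Hoxb13 had 878 and 181 counts in them, and at most 49 in any other mouse. Most of their sum came from Hoxa13 (71.0 and 75.3 CPM) and Hoxb13 (55.5 and 11.4 CPM). Hoxd10 and Hoxd11 of the same list went the other way, being lowest of their group in these mice. They had 0.51 and 0.44 CPM in Control replicate 1, and 1.01 and 0.76 CPM in GWI replicate 5. Control replicates 6 and 7 held Paneth cell defensins, which were at or near 0 in the other mice. Several of the results that rest on these 4 mice are given with and without them.

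**Figure D1:**
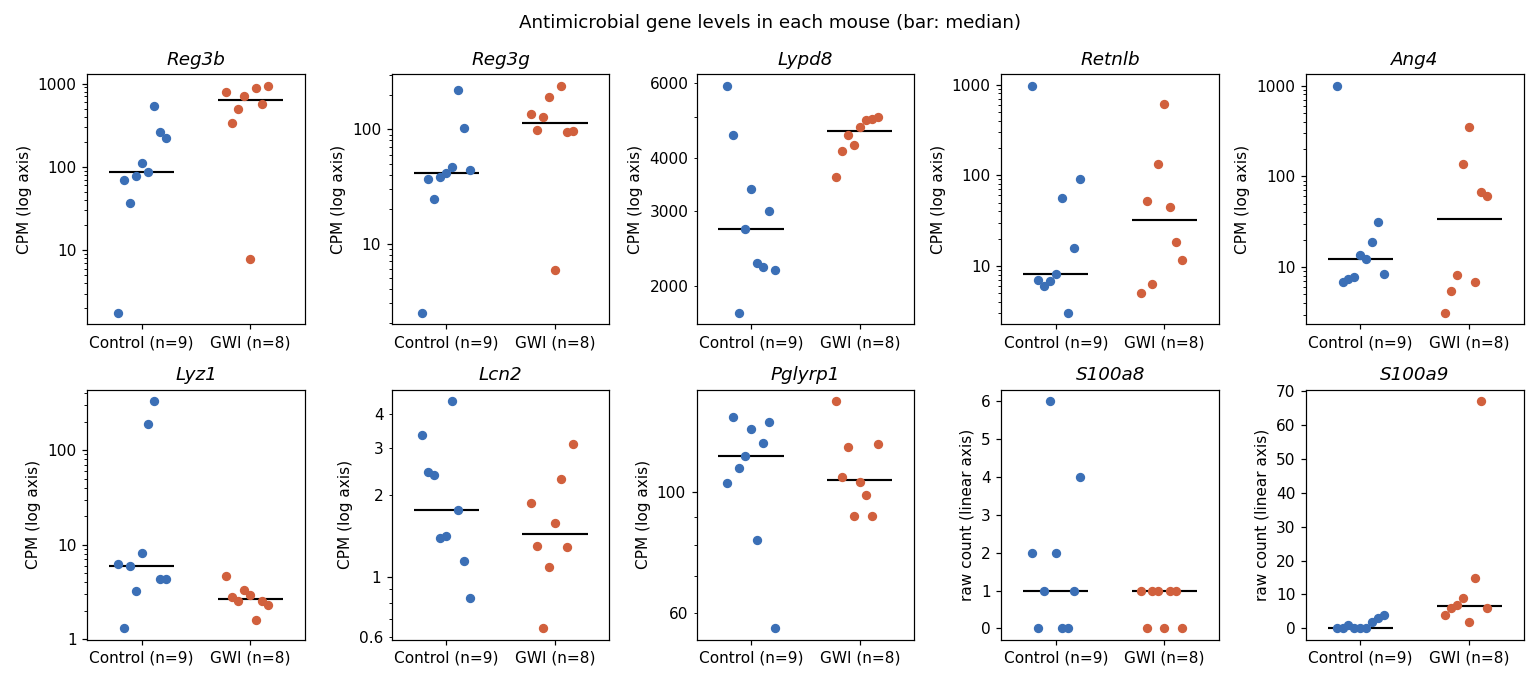
Level of each gene in each mouse, as CPM on a log axis for 8 genes and as raw counts on a linear axis for S100a8 and S100a9. Points are mice, 9 Control (blue) and 8 GWI (orange), and bars are group medians. The groups overlap for every gene, and single mice lie far from the rest for Reg3b, Reg3g, Retnlb, Ang4, Lyz1 and S100a9.

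Reg3b encodes a C-type lectin that binds Gram-negative bacteria. Its level in Control mice ran from 1.77 through a median of 86.6 to 534 CPM, and in GWI mice from 7.82 through 640 to 947 CPM. The mice at the bottom were Control replicate 1 and GWI replicate 5, and the highest control was Control replicate 7. The other GWI mice lay at 333 CPM or above, and 5 of the 8 exceeded every control. The means were 155 ± 165 CPM (SD, n = 9) and 591 ± 310 CPM (SD, n = 8). This was a log2 fold change of 1.93 (SE 0.74, 95% interval 0.38 to 3.47), and its adjusted p of 0.0593 from edgeR missed the threshold. That call depended on single mice, since the adjusted p was 0.037 without Control replicate 1, 0.0243 without Control replicate 7 (log2 fold change 2.45) and 0.0216 without GWI replicate 5. It was also passed with DESeq2 (0.0335) and limma-voom (0.00132), and over all alternatives the adjusted p ran from 0.00132 to 0.245.

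Reg3g encodes the related lectin that binds the peptidoglycan of Gram-positive bacteria and keeps them off the epithelium. Control mice lay between 2.46 and 220 CPM with a median of 41.8, and GWI mice between 5.80 and 242 CPM with a median of 114. The same mice as for Reg3b were lowest and highest among the controls and lowest in the GWI group, and 1 GWI mouse exceeded every control. The log2 fold change of 1.01 (SE 0.60, interval -0.26 to 2.27) did not pass edgeR's test (adjusted p = 0.214). It passed without Control replicate 7 (1.56, adjusted p = 0.0492) and with limma-voom (1.62, adjusted p = 0.00628), and the adjusted p over the alternatives reached 0.733.

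Without Control replicate 1 and GWI replicate 5, Reg3b spanned 37.0 to 534 CPM in 8 Control mice and 333 to 947 CPM in 7 GWI mice. Its log2 fold change was then 1.95, with an adjusted p of 0.00482 from edgeR, an alternative chosen after seeing the data. The overlap that was left came from Control replicate 7, a mouse that also held Paneth cell defensins.

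Lypd8 encodes a GPI-anchored protein of the colon surface that binds flagella and keeps motile bacteria out of the inner mucus. Control mice ran from 1731 through 2726 to 5912 CPM, and GWI mice from 3614 through 4623 to 4993 CPM. All 8 GWI mice lay above the control median, and the highest value of all belonged to Control replicate 1 with 5912 CPM, so the groups overlapped. The GWI mice were also closer together, with a coefficient of variation of 10.6% against 43.2%, a difference that was not tested. As a log2 fold change the difference was 0.54 (SE 0.21, interval 0.11 to 0.97), and the adjusted p of 0.0586 from edgeR missed the threshold. It passed without Control replicate 1 (0.72, adjusted p = 0.00432), without Control replicate 2 (0.63, adjusted p = 0.0355), with DESeq2 (0.0328) and with limma-voom (0.00182), in a range that reached 0.285 over the alternatives.

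Lyz1 encodes the lysozyme of Paneth cells, an enzyme that cuts the bacterial wall. Its level ran from 1.31 through 5.92 to 330 CPM in Control mice and from 1.61 through 2.68 to 4.68 CPM in GWI mice. Control replicates 6 and 7 stood alone at 189 and 330 CPM, while no other mouse passed 8.19 CPM, and the remaining controls overlapped the GWI mice. GWI mice were lower by edgeR's test, with a log2 fold change of -4.42 (SE 1.10) and an adjusted p of 0.00897, and all 8 GWI mice lay below the control median. Omitting Control replicate 7 gave -3.29 (adjusted p = 0.0184). Without both of these controls, an alternative chosen after seeing the data, it was -0.75 with an adjusted p of 0.0854, so that the call rested on these 2 mice. It was also lost with limma-voom (-1.52, adjusted p = 0.0985) and with a covariate for smooth muscle against colonocyte markers (-2.72, adjusted p = 0.252). That covariate differed between the groups, so calls lost with it, here and below, may reflect lost precision. DESeq2 called Lyz1 lower with and without its default replacement of outlying counts. With the replacement the fall was smaller than a log2 change of 1. Over the alternatives the value ran from -4.77 to -0.69.

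The same 2 controls carried other Paneth cell transcripts. Of 10 Paneth markers, 2 passed the filter, and the summed level was 238 and 436 CPM in Control replicates 6 and 7 against 1.20 to 73.1 CPM in the other mice. The alpha-defensin Defa24 had 1364 and 2174 counts in them and at most 12 elsewhere, with 0 in 3 controls and 6 GWI mice. Defa17 and Mptx2 had 0 counts in the GWI group. The most abundant marker on average was Itln1, an intelectin that goblet cells also make. Mmp7, the protease that activates mouse defensins, was the marker called lower (-1.46, adjusted p = 0.0467 with edgeR), and with single mice omitted in turn it kept that call in 4 of 17 fits. Fabp6, the ileal bile acid-binding protein, had 2677 and 5695 counts in the same 2 controls and at most 133 in the others (log2 fold change -4.40, adjusted p = 0.0088). Without both controls Fabp6 was at -0.96 with an adjusted p of 0.0814. What these transcripts contribute to the colon samples was not tested. Lyz1 and Lyz2 are close copies, so counts of uniquely assigned reads may have been split or lost between them.

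**Figure D2:**
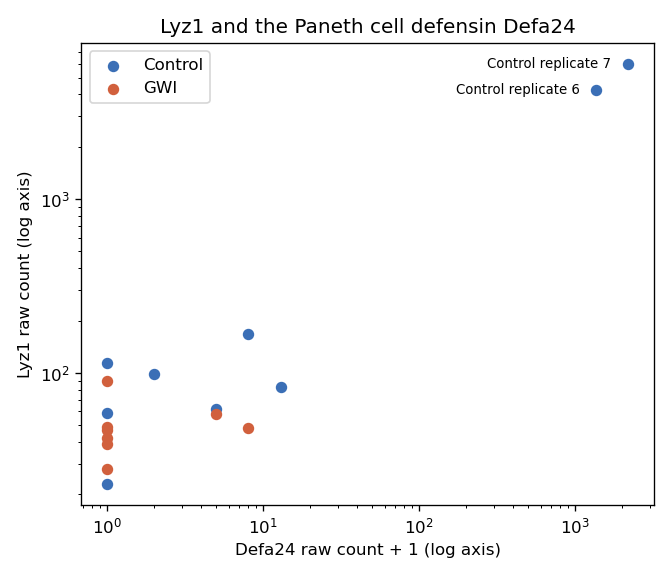
Raw Lyz1 counts against raw Defa24 counts plus 1 in each of the 17 mice, both on log axes, with Control mice in blue and GWI mice in orange. Control replicates 6 and 7 sit at 1364 and 2174 Defa24 counts, far from the other mice, which had at most 12.

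Retnlb encodes resistin-like molecule beta, a goblet cell protein that damages Gram-negative membranes. Control mice ran from 3.04 through 8.19 to 976 CPM, and GWI mice from 5.00 through 31.8 to 611 CPM. The top of each group was a single mouse, Control replicate 1 and GWI replicate 5, and the groups overlapped over nearly their whole range. The log2 fold change was -0.23 (SE 1.18, interval -2.71 to 2.24), with an adjusted p of 0.898 from edgeR. The sign was set by 1 mouse, as the value without Control replicate 1 was 2.20 (adjusted p = 0.0867). It was 2.87 without Control replicates 1 and 9 (adjusted p = 0.0365), and 0.69 without Control replicate 1 and GWI replicate 5 (adjusted p = 0.506). The adjusted p over the alternatives, fits without 1 mouse included, ran from 0.0365 to 0.981.

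Ang4 encodes angiogenin 4, a ribonuclease with bactericidal activity made by Paneth and goblet cells. Control mice lay between 6.76 and 1002 CPM (median 12.2) and GWI mice between 3.12 and 351 CPM (median 34.1). Control replicate 1 and GWI replicate 5 were again highest, followed by GWI replicate 4 at 138 CPM, and 2 GWI mice lay below every control. The log2 fold change of -0.63 (SE 1.18) did not pass edgeR's test (adjusted p = 0.709). Without Control replicate 1 it was 2.58 and passed (adjusted p = 0.0216), and without Control replicates 1 and 9 it was 2.48 (adjusted p = 0.038). Both fits keep GWI replicate 5, and without Control replicate 1 and that mouse, an alternative chosen after seeing the data, the call was lost (1.63, adjusted p = 0.076). The median Ang4 level was then 10.3 CPM in 8 Control mice and 8.27 CPM in 7 GWI mice, opposite in direction to the fold change. DESeq2 gave 2.46 (adjusted p = 0.00626) with its default replacement of outlying counts and -0.65 (adjusted p = 0.673) without it, the latter chosen after seeing the data. Ang4 is 1 of a family of close copies, which unique counting may affect.

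**Figure D3:**
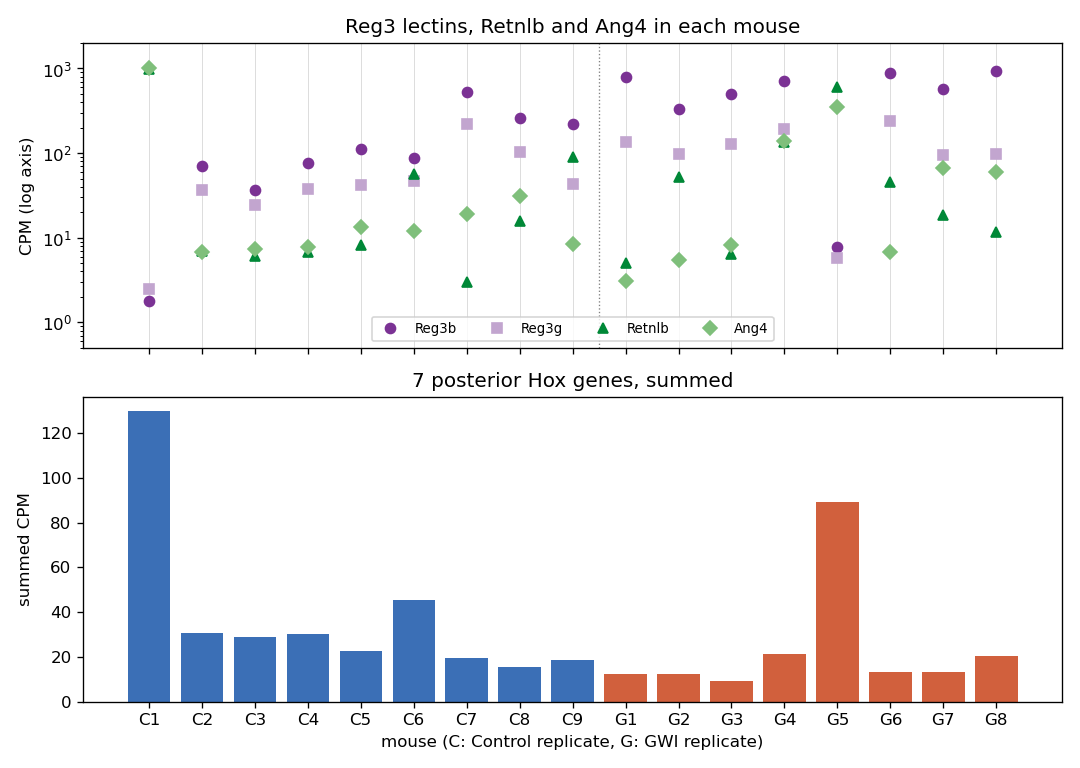
Upper panel, CPM on a log axis of Reg3b, Reg3g, Retnlb and Ang4 in each of 9 Control (C) and 8 GWI (G) mice. Lower panel, the summed CPM of 7 posterior Hox genes in the same mice. Control replicate 1 (130 CPM) and GWI replicate 5 (89.4 CPM) were highest, the mice with the lowest Reg3 and highest Retnlb and Ang4 levels. In them the sum was mostly Hoxa13 and Hoxb13, while Hoxd10 and Hoxd11 were lowest of their group.

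Lcn2 encodes lipocalin 2, which binds bacterial siderophores and so withholds iron. It was near the lower end of detection in both groups, at 0.84 to 4.47 CPM in Control mice (12 to 101 counts) and 0.64 to 3.09 CPM in GWI mice (12 to 52 counts). The groups overlapped, and the log2 fold change of -0.38 (SE 0.34) did not pass edgeR's test (adjusted p = 0.399). Pglyrp1, a peptidoglycan recognition protein that kills bacteria, had the same mean in both groups to 3 digits, 110 ± 26.7 CPM (SD, n = 9) and 110 ± 19.3 CPM (SD, n = 8). Its log2 fold change was -0.0047 with an interval of -0.33 to 0.32 (adjusted p = 0.985 with edgeR). The data of these mice do not exclude changes inside that interval.

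S100a8 and S100a9 encode the 2 chains of calprotectin, which withholds zinc and manganese from bacteria and makes up much of the neutrophil cytosol. S100a8 had 2, 0, 1, 6, 2, 0, 0, 1 and 4 counts in the Control mice and at most 1 in each GWI mouse, 16 and 5 counts in all. S100a9 had 0, 0, 1, 0, 0, 0, 2, 3 and 4 counts in the Control mice and 4, 6, 7, 9, 2, 15, 67 and 6 in the GWI mice. The sums were 10 and 116 counts, with 5 controls and no GWI mouse at 0, and 67 of the GWI counts came from GWI replicate 7. A count of 0 allows up to 3 counts per mouse, so these counts can show only large differences. Tested without the filter, S100a9 had a log2 fold change of 3.65 (SE 0.81, adjusted p = 0.00638 with edgeR). Without GWI replicate 7 as well, an alternative chosen after seeing the data, it was 2.57 (adjusted p = 0.0189). S100a8 had -1.31 without the filter (SE 0.77, adjusted p = 0.243).

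None of the tested neutrophil markers was called. Of 12 listed markers 2 passed the filter and 0 were called by edgeR, DESeq2 or limma-voom, with 0 at an unadjusted p under 0.05. Of all tested genes these tools called 26.8%, 32.6% and 57.2%, so 2 genes cannot show whether neutrophils differed. The summed level of the 12 markers was 3.21 to 16.4 CPM in Control mice (median 3.92) and 3.27 to 6.75 CPM in GWI mice (median 4.10). The granule genes Ngp and Stfa2l1 had 0 counts in all mice, Mpo and Elane 4 counts each in all, and the most abundant marker was Lrg1, which other cells also make. GWI replicate 7, with the 67 S100a9 counts, also had the most Lrg1, 97 counts (5.96 CPM) against 24 to 62 in the other mice, and the highest summed level of its group. It had 10 counts of Ly6g, of which Control replicate 1 had 198. The part of these transcripts in the S100a9 counts was not tested.

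Levels were compared between genes as RPKM, CPM per kilobase of the gene's exons. Over the 17 mice the median RPKM was 3232 for Lypd8, 228 for Reg3b, 60.2 for Pglyrp1, 45.2 for Reg3g, 22.7 for Retnlb, 17.2 for Ang4, 2.64 for Lyz1, 0.60 for Lcn2, 0.30 for S100a9 and 0.075 for S100a8. The pooled medians cover groups at different levels. The median RPKM in Control and GWI mice was 2123 and 3600 for Lypd8, 75.8 and 560 for Reg3b, 63.3 and 57.4 for Pglyrp1, and 19.8 and 53.9 for Reg3g. It was 11.8 and 45.7 for Retnlb, 17.2 and 48.1 for Ang4, 4.69 and 2.12 for Lyz1, and 0.67 and 0.55 for Lcn2. For S100a9 it was 0 and 0.70, and for S100a8 0.075 and 0.076. Ang4 was thus above Retnlb by the median of either group, the reverse of their pooled order. Lypd8 was above Reg3b in all 17 mice and ranked 5 of 23542 entries, so the anti-flagellar protein was the main transcript of the group in this tissue. The order below it was less firm. By RPKM, Reg3b exceeded Pglyrp1 in 13 of the 17 mice, Pglyrp1 exceeded Reg3g in 14, and Reg3g exceeded Retnlb in 11. Retnlb exceeded Ang4 in 7 of the 17 mice, so these neighbours were not ordered beyond their spread. Lyz1 was above Lcn2 in all 17, and Lcn2 above S100a9 in 11. By group medians, S100a9 was above Lcn2 in GWI mice and below S100a8 in Control mice, so that order also turned.

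Correlations of log2 CPM between members were computed within each group over 5 pairs, 10 in all, with exact two-sided permutation tests. Reg3b and Reg3g varied together in Control mice, with Pearson's r = 0.975 (p = 7.16e-05, adjusted p = 0.000716) and Spearman's rho = 0.95 (p = 0.000353, adjusted p = 0.00353, n = 9, exact permutation). Without the 2 mice farthest from the median, r was 0.839 with an exact p of 0.0135 (adjusted 0.135). In GWI mice r was 0.961 (exact p = 0.0195, adjusted p = 0.0976, n = 8) and rho 0.5 (exact p = 0.216, adjusted p = 0.539), and r fell to 0.256 without GWI replicates 2 and 5, so that the relation rested on them. Retnlb and Ang4 gave r = 0.749 in Control mice and 0.672 in GWI mice, with rho of 0.417 and 0.619 and exact adjusted p of 0.136 for both values of r. Without 2 mice those values were 0.164 and 0.204, so that pair too rested on single mice. Reg3g and Retnlb gave r = -0.749 in Control mice and -0.612 in GWI mice (exact adjusted p = 0.125 and 0.193), with rho of -0.15 and -0.190. Without 2 mice the sign turned, to 0.318 and 0.344. S100a8 with S100a9 gave r = 0.174 and 0.537 (exact adjusted p = 0.740 and 0.213), with rho of -0.043 and 0.850. The latter rho (exact p = 0.0115, adjusted p = 0.0575) ranks S100a8 values of 0 or 1 count per GWI mouse, so it says little about covariation. Reg3g with Lcn2 gave r = -0.436 and -0.032 (exact adjusted p = 0.304 and 0.932), and neither pair passed.

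The tested genes most like Reg3b over the 17 mice, by Pearson correlation of log2 CPM after centring each group, were Sis (0.97), Reg3g (0.97), Malrd1 (0.96), Cyp3a25 (0.96) and Vnn1 (0.96). Sis encodes sucrase-isomaltase, a brush border enzyme of the small intestine. Its level was highest in Control replicate 7, at 193 CPM, and next highest in Control replicate 8, at 82.7 CPM. The most opposite was Slc8b1 (-0.91), followed by Hoxb13 (-0.90), a posterior Hox gene that was high in Control replicate 1 and GWI replicate 5. Without these 2 mice, over 15 mice, all of these correlations with Reg3b were weaker, at 0.85 for Sis, 0.83 for Reg3g, 0.74 for Malrd1, 0.76 for Cyp3a25, 0.71 for Vnn1, -0.50 for Hoxb13 and -0.35 for Slc8b1. For Retnlb the closest were Aqp8 (0.92), Dync1li2 (0.92), Srd5a2 (0.92), Gsdmcl2 (0.91) and Edn3 (0.91), and the most opposite was Krt7 (-0.92). Aqp8 encodes a water channel of surface colonocytes, and its correlation with Retnlb over the 15 mice was 0.84. There the others were at 0.80 (Dync1li2), 0.79 (Srd5a2), 0.82 (Gsdmcl2), 0.76 (Edn3) and -0.79 (Krt7). S100a8 was not tested, so no neighbours were named for it.

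In GENCODE M21 (GRCm38), Reg3b lies at chr6:78370657-78373466 on the plus strand and Reg3g at chr6:78466269-78468872 on the minus strand, and no member overlaps the exons of another gene. Promoter windows from RefSeq (GRCm38.p6), 250 bases before to 50 after the gene start, were found for 9 of the 10 members (10 windows), and not for Retnlb. The start used there for Reg3b, at position 78370885, lies 228 bases inside the GENCODE gene, so most of its window is within the gene as GENCODE draws it, while the starts for Reg3g differ by 2 bases. The windows of the 2 lectins are shown because these genes varied together in the Control mice. They are chr6:78370635-78370934 (plus strand) for Reg3b and chr6:78468825-78469124 (minus strand) for Reg3g, written 5′ to 3′, with the longest run of bases they share in capitals.
Reg3b: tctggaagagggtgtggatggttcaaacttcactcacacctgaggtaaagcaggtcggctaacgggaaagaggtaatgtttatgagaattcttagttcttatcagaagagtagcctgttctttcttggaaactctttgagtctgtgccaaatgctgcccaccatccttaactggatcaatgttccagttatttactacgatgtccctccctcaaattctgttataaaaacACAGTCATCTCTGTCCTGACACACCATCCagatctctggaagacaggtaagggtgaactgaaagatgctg
Reg3g: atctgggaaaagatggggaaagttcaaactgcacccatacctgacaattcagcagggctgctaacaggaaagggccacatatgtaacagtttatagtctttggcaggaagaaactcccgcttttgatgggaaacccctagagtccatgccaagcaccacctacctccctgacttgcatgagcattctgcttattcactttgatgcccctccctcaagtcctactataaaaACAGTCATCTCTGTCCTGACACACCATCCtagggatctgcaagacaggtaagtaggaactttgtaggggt
Aligned end to end, they were identical in 68.6% of 306 columns, and the shared run of 29 bases was found in 2 of 32851 windows, these 2. The letters TATAAA, on either strand, occurred in 13.6% of all windows and in those of Reg3b, Reg3g, S100a8 and S100a9. The letters TTCNNNGAA, a spacing that STAT proteins can bind, occurred on either strand in 8.3% of all windows and in those of Reg3b and Ang4. These matches describe the windows only.

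Other antimicrobial genes were read from a list of 34, of which 18 were tested. For this and the following lists, the share of all tested genes called in either direction was 26.8% by edgeR, 32.6% by DESeq2 and 57.2% by limma-voom. Only Dmbt1 rose and only Lyz2 fell by edgeR's test, where DESeq2 called 3 and limma-voom 5 genes of the list, beside a median log2 fold change of -0.17 for the list and -0.06 for all tested genes. Dmbt1, a scavenger receptor of the mucus that clumps bacteria, was also the most abundant of the list, at 2938 ± 735 CPM (SD, n = 9) in Control and 6436 ± 1774 CPM (SD, n = 8) in GWI mice. Its log2 fold change was 1.13 (SE 0.20, adjusted p = 0.00117), and it passed in all 17 fits with a single mouse omitted. Lyz2, the lysozyme of macrophages, was at -0.64 (SE 0.19, adjusted p = 0.0188), a call lost with the muscle covariate (-0.27, adjusted p = 0.406). Mptx1, a mucosal pentraxin, had 59256 counts in Control replicate 1 and 6998 in GWI replicate 5 against at most 578 elsewhere, the pattern of Retnlb and Ang4. Of 7 tested galectins, Lgals9 rose (0.60, adjusted p = 0.0135) and Lgals1 and Lgals2 fell (-0.90 and -2.04, adjusted p = 0.00503 and 0.0458). The Lgals2 call was kept in 8 of 17 such fits, and without Control replicates 6 and 7 its value was -0.16. The Lgals9 call was kept in 13 of the 14 alternatives other than single-mouse omissions. Of 8 genes for oxidative defence, the lactoperoxidase gene Lpo (0.90, adjusted p = 0.0308) and Noxo1, the organizer of an epithelial NADPH oxidase (0.64, adjusted p = 0.0166), rose and none fell, while DESeq2 called 4 and limma-voom 5 of these genes. Lpo kept its call in 13 of the 17 fits. With the muscle covariate the calls of Lgals1 (-0.46, adjusted p = 0.115), Lgals2 (-1.60, adjusted p = 0.305), Noxo1 (0.29, adjusted p = 0.293) and Lpo (0.98, adjusted p = 0.141) were lost as well.

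The receptors of these proteins and the pathways that induce them were read the same way. Of 7 receptors 5 were tested, and Plxnb2, a receptor for angiogenins, rose from 287 ± 100 to 514 ± 52.6 CPM (SD, n = 9 and 8) with a log2 fold change of 0.84 (SE 0.17, adjusted p = 0.0035 with edgeR). It was the 1 receptor called, as with DESeq2, while limma-voom called 4. Of 24 genes of the interleukin-22 and interleukin-17 pathways 17 were tested, and 4 rose (13.4% of all tested genes did), where DESeq2 called 8 (beside 32.6% of all tested genes) and limma-voom 15 (beside 57.2%). The 4 were Socs3, a feedback inhibitor of STAT3 (0.79, adjusted p = 0.00241), Il17ra (0.47, adjusted p = 0.0131), and the kinases Tyk2 (0.36, adjusted p = 0.0156) and Jak1 (0.26, adjusted p = 0.0102). Il17ra kept its call in 13 of the 14 alternatives other than single-mouse omissions. The median of the list was 0.30, and 13 of the 17 were positive beside 44.8% of all tested genes. The cytokine Il17a had 0 counts in all mice and Il22 had 6 counts over all of them, so neither was tested. The negative genes included Il22ra2 (-0.93, adjusted p = 0.0508) and Osmr (-0.57, adjusted p = 0.0557), which edgeR did not call. Of 11 genes of the interleukin-4 and interleukin-13 pathway 7 were tested and 3 called, as many as with DESeq2, against 5 with limma-voom. Il4 (2.58, adjusted p = 0.000619) and Stat6, which carries its signal (0.40, adjusted p = 0.00533), rose, and Il33, an alarm cytokine of stromal and epithelial cells, fell (-0.81, adjusted p = 0.00744). Il4 was at 1.39 to 3.81 CPM in Control and 1.84 to 50.5 CPM in GWI mice. The cytokine Il13 had 2 counts over all mice and was not tested. The median of that list was 0.21. Of 18 genes of microbial sensing 17 were tested and 6 rose, beside 13.4% of all tested genes, while DESeq2 called 7 (beside 32.6%) and limma-voom 11 (beside 57.2%). The largest rises were in Tlr5, the flagellin receptor (0.99, adjusted p = 0.00302), Tlr1 (0.64, adjusted p = 0.00238), Irak4 (0.55, adjusted p = 0.000448) and Ticam1 (0.54, adjusted p = 0.0104). The median of the list was 0.18. With the muscle covariate Il33 was at -0.23 (adjusted p = 0.435) and lost its call, as did Tyk2 (0.23, adjusted p = 0.195), Jak1 (0.22, adjusted p = 0.0666), Tlr1 (0.33, adjusted p = 0.0642) and the 2 genes of microbial sensing with the smallest rises.

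Markers of muscle and epithelium also differed between the groups. Of 10 smooth muscle markers 7 fell and none rose by edgeR's test (9 called by DESeq2, 10 by limma-voom), with a median log2 fold change of -0.91. Their summed level was 3690 to 23923 CPM in Control mice (median 11584) and 3658 to 11832 CPM in GWI mice (median 5142), and the most abundant was Myh11. Among the genes called, the largest falls were in Tagln (-1.17, adjusted p = 0.00628), Myh11 (-1.10, adjusted p = 0.0407), Synpo2 (-1.06, adjusted p = 0.0274) and Acta2 (-0.91, adjusted p = 0.0496). Of these 4 only Tagln kept its call in all 17 single-mouse omissions. Of 11 colonocyte markers 3 rose, Cdx2 (0.38), Vil1 (0.64) and Epcam (0.28), the last in 4 of the 17 fits (4 called by DESeq2, 7 by limma-voom). The median was 0.38, and the most abundant was Car1 (-0.06). The summed level of these markers had a median of 16776 CPM in Control and 17598 CPM in GWI mice. Of 10 goblet cell markers Muc2, the gel-forming mucin, rose (0.51, adjusted p = 0.0465) in a call kept in 6 of the 17 fits (3 called by DESeq2, 5 by limma-voom), with a median of 0.09 for the list. Of 12 markers of the small intestine 8 were tested, Alpi rose (0.92, in 7 of the 17 fits) and Fabp6 fell. Of 7 posterior Hox genes 5 were tested and 0 were called by edgeR, with 2 at an unadjusted p under 0.05 and 2 called by DESeq2 and by limma-voom each, at a median of -1.04. With the covariate the calls of Mmp7 (-1.25, adjusted p = 0.185 with edgeR), Fabp6 (-3.15, adjusted p = 0.166) and Muc2 (0.62, adjusted p = 0.0929) were lost, as were those of all called muscle and colonocyte markers, from which it is built. What the fall of the muscle markers contributes to the levels of the secreted proteins was not tested beyond the covariate. Under it, 0 of the 8 members were called beside 25.2% of all tested genes.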

How the data were processed

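Colon RNA of 17 mice, 9 Control and 8 GWI, had been sequenced from poly(A)-selected libraries. The authors used Trimmomatic 0.36 for trimming and STAR 2.5.2b for mapping to GRCm38, and deposited raw counts of uniquely assigned reads per gene from featureCounts. The annotation release and strand setting are not given in the sources used here. Some sample names share a prefix that is not explained and was not modelled, so p-values measure only the spread between these mice. The authors compared the groups with DESeq2 at a p under 0.05 together with a log2 change above 1 in size.

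Here, counts were filtered with filterByExpr, and TMM-scaled, and the quasi-likelihood functions of edgeR 4.0.16 (glmQLFit with robust estimation, then glmQLFTest) were run in R 4.3.3 on all mice, with condition as the only term and Benjamini-Hochberg adjustment over the 14146 tested genes. Standard errors came from dividing the log2 fold change by the root of F, and intervals are 95%. They and the zero-count limit of 3 counts do not cover variation in library preparation. RPKM used exon lengths of GENCODE gene models of the same build, matched by symbol for 99.5% of 23671 symbols. Named genes were the 10 members, up to 4 called genes per direction of each list (or its most abundant gene) and the 5 genes most correlated with Reg3b, Retnlb and S100a8. Genes named in single mice (Defa24, Mptx1, Ly6g and others), and Lmod1 and Smtn, named for a change of sign, fall outside that rule and were chosen after their values were seen. The same holds for Il22, Il13, Il22ra2 and Osmr. The members and lists were chosen with earlier results of these data known. Alternatives were other scalings, DESeq2 1.42.0, limma-voom 3.58.1, other filters, a fit without robust estimation, a marker covariate, a replicate block, the authors' threshold, and fits without 1 or 2 mice. The fit was checked on simulated counts.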

Additional observations from a re-analysis of the deposited data

Results flagged for a closer look

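Each group of 8 or 9 mice was examined for a highest or lowest mouse far from the others in CPM, for 10 genes in both groups. Of these 20 groups, 7 held such a mouse. For normally distributed values chance gives about 1 in 20 groups, but CPM values are skewed and the groups share the same mice, so the 7 cannot be set against that rate. Control replicate 7 stood above the other controls for Reg3b, at 534 CPM against 260 CPM in the next mouse, and for Reg3g, at 220 CPM against 103 CPM. Control replicate 1 did so for Retnlb (976 CPM, next 90.5 CPM) and Ang4 (1002 CPM, next 31.2 CPM), and GWI replicate 5 for Retnlb (611 CPM, next 135 CPM) and Ang4 (351 CPM, next 138 CPM). GWI replicate 7 stood out for S100a9, at 4.11 CPM. The 4 values for Retnlb and Ang4 belong to the 2 mice with the highest summed posterior Hox level. That level was mostly Hoxa13 and Hoxb13, while Hoxd10 and Hoxd11 were lowest of their group in these mice. Whether the Retnlb, Ang4 and Hox levels go together for a shared reason was not tested.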

How the results depend on the processing

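The count of genes called was 3792, and it moved by over 1.5 times with the authors' threshold on the edgeR fit (342) and on DESeq2 (373), limma-voom (8091) and the replicate block (2218, 1 mouse fewer). The range over fits without 1 mouse was 2781 to 4818. With upper-quartile scaling 28.9% of the called genes were higher in GWI, against 49.8% in the reported fit, and the median log2 fold change of all genes was -0.15. The count of members called was 1 of 8 (Lyz1), beside 26.8% of all tested genes, and each share below is that of all genes tested in the same fit. It was 2 with the authors' threshold on the edgeR fit (Reg3b added, 2.42%) and 2 with it on DESeq2 (Reg3b and Ang4, 2.64%), 4 with DESeq2 (32.6%), 3 with DESeq2 without replacement of outlying counts (32.4%), 3 with limma-voom (57.2%), 2 of 10 without a filter (S100a9 added, as more genes were tested, 16.9%), 0 with the marker covariate (25.2%), 5 without Control replicates 1 and 9 (39.3%), and 3 without Control replicate 1 and GWI replicate 5 (34.9%). Without Control replicates 6 and 7 it was again 1 (19.6%), but Reg3b in place of Lyz1. The range without 1 mouse was 1 to 4, the 4 without Control replicate 1 (34.2%). For DESeq2 the replacement of outlying counts set the values of Retnlb, Ang4 and Lyz1, and otherwise the cause was not tested.

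With the replicate block the count of members called was 0 (15.7%). The groups share replicate numbers only by label, same-numbered mice correlated at -0.506 to 0.115 after group means were removed, and 0 mice correlated best with their own number.

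The log2 fold change of Retnlb turned positive with DESeq2 (0.59), limma-voom (1.69), the replicate block (1.41), without Control replicates 1 and 9 (2.87), without Control replicate 1 and GWI replicate 5 (0.69), and without 1 mouse (-1.73 to 2.20). That of Ang4 did so in the same fits (2.46, 0.90, 0.84, 2.48 and 1.63, and -1.58 to 2.58). With the covariate Lcn2 (0.23), Pglyrp1 (0.26), Acta2 (0.21), Myh11 (0.036), Lmod1 (0.16) and Smtn (0.14) changed sign, the muscle genes being part of that covariate. Pglyrp1 ran from -0.084 to 0.039 without 1 mouse. Lyz1 stayed negative under all alternatives, from -4.77 to -0.69, and Reg3b, Reg3g and Lypd8 stayed positive.

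Without the 2 mice farthest from the median, the correlation of Reg3b with Reg3g in Control mice lost its call (r = 0.839), and the sign changed for S100a8 with S100a9 in Control mice (r = -0.165) and for Reg3g with Retnlb in Control (r = 0.318) and GWI mice (r = 0.344). On CPM without the log, Reg3g with Lcn2 in GWI mice changed sign (r = 0.062). Of 38 called list genes, 24 passed in all fits without 1 mouse and 8 under every other alternative. Depth limits S100a8, S100a9 and Lcn2.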

Other observations

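Of 8 macrophage markers, Mrc1 fell (log2 fold change -0.55, adjusted p = 0.0287 with edgeR, kept in 12 of 17 single-mouse omissions). That call was lost with the muscle covariate (-0.27, adjusted p = 0.411), the replicate block (-0.58, adjusted p = 0.0876) and without Control replicates 6 and 7 (-0.45, adjusted p = 0.0871). None of the 8 was positive (3 called by DESeq2, 7 by limma-voom, beside 32.6% and 57.2% of all tested genes). Of 4 tested plasma cell markers, Sdc1 rose (0.46, adjusted p = 0.0103), a call lost with the covariate (0.44, adjusted p = 0.0624) and the block (0.43, adjusted p = 0.0604). Of 10 pancreatic markers only Clps passed the filter, and it fell (-0.81, adjusted p = 0.0343, kept in 9 of the 17, and lost with limma-voom, the block and each omission of 2 mice), while Cpa1 had 0 counts in all mice. Of 5 erythroid markers, 0 were called by edgeR, DESeq2 or limma-voom, and 0 had an unadjusted p under 0.05. Control replicate 9 had 23.1% of its counts in its 10 most abundant entries, against 9.72% to 17.3% in the other mice.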
